A study of Homo sapiens with 18 samples.

Results

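The replication-dependent histone genes are the clustered genes that encode the histones packed onto newly copied DNA. They were taken as every gene whose symbol starts with HIST1H, HIST2H, HIST3H or HIST4H in the expression tables, and 74 of the 25721 genes in these tables met that rule. By class they were 6 H1, 18 H2A, 20 H2B, 15 H3 and 15 H4 genes, 3 of them annotated as pseudogenes (HIST1H2APS1, HIST2H2BA and HIST2H2BC). They were measured by RNA-seq in 18 libraries of 2 human triple-negative breast cancer cell lines, in 6 groups of 3 cultures each. BT-549 control cells were compared with BT-549 cells stably expressing a PBRM1shRNA. The labels of these controls do not say whether they carried a control shRNA, as the BT-549 controls of the paper's PBRM1 accessibility assays did. A separate set of BT-549 cells with a stable control shRNA was compared with BT-549 cells stably expressing an IRF1shRNA. Both shRNA groups and the IRF1 controls of BT-549 cells thus carried an shRNA, while the labels leave this open for the PBRM1 controls. MDA-MB-436/tet-MUC1shRNA cells, all of which carry an shRNA against MUC1 that doxycycline (DOX) switches on, were compared after 500 ng/ml DOX and after the DMSO vehicle, and the time under DOX is not given in the sources used here. No DOX-treated cells with a control shRNA were analysed here, so an effect of DOX and an effect of MUC1 silencing cannot be told apart. Each group is cultures of a single line, so the p-values refer to cultures of that line only. In both BT-549 fits they rest on a spread common to genes of similar level, not on the spread of each gene itself.

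Histones H2A, H2B, H3 and H4 form the core of the nucleosome, and H1 binds the linker DNA between nucleosomes. The clustered genes are known to be transcribed mainly in S phase, under the coactivator NPAT. Most of their transcripts are not spliced and end, after cleavage by the U7 particle, in a stem-loop bound by SLBP instead of a poly(A) tail, and a few members are also known to give polyadenylated transcripts. PBRM1 is a subunit of the PBAF chromatin remodelling complex, IRF1 is a DNA-binding factor that acts in interferon signalling and MUC1 encodes the transmembrane mucin from which the oncogenic MUC1-C subunit derives. The library kit selects poly(A) RNA, so the values below are for the histone RNA that such a kit captured.

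The stem-loop is the sequence that sets these transcripts apart from other mRNAs and is shown here for each form found. The search fixed the bases that the 6 forms below share and allowed any base at their other 4 positions, on the transcript strand in the first 100 bases after the stop codon of GENCODE v29 transcripts (GRCh38). Members were counted where at least 60 bases were annotated there or a shorter stretch held the sequence, and 32 of these 33 held it. Of 18665 other protein-coding genes with at least 60 such bases, 1 held it (0.00536%), the variant histone gene H2AFX. The rule for members thus favours the sequence, as does a search built on bases that the members' own forms share, so these counts are not like for like. The 6 forms differed within the arms and in the loop, while the outer bases GGC and GCC were the same in all. In the lines below the 6 bases of each arm are in capitals and the 4 bases of the loop in lower case, 5′ to 3′.
HIST3H2A, chr1:228457369-228457384, minus strand: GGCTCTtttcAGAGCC
HIST1H2BC, chr6:26123472-26123487, minus strand: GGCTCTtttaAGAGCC
HIST1H4B, chr6:26026901-26026916, minus strand: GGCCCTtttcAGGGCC
HIST2H4A, chr1:149833032-149833047, plus strand: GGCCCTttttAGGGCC
HIST1H3E, chr6:26225596-26225611, plus strand: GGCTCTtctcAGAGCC
HIST1H2AG, chr6:27133515-27133530, plus strand: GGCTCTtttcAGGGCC
The first form was found in 17 members (6 H2A, 8 H2B and 3 H3) and the next in 5 (3 H2B and 2 H3). The third and the fourth form were found in 8 H4 genes (5 and 3) and in no other class. The last 2 forms were each found in 1 member.

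The promoters were read from RefSeq (GRCh38.p14) as the 250 bases before the annotated start, which gave a promoter for 66 of the 74 members. A member was counted if any promoter annotated for it held the motif, while the shares over all are of single promoters, so the 2 are not like for like. TATAAA was present on either strand in 45 of the 66, against 10.7% of all 35116 promoters. CCAAT was present in 56, against 32.0% of all. It was counted for all H1, H2A, H2B and H3 members with a promoter but for only 3 of 13 H4 members. The octamer ATTTGCAT was present in 26, against 1.63% of all, namely 11 H2A, 14 H2B and 1 H3 gene. The 120 bases before the start are shown for HIST1H3B and 4 members that stand apart from most of the family in at least 1 comparison below, on the transcript strand, with these motifs in capitals, CCAAT also as its reverse complement ATTGG.
HIST1H3B, chr6:26032100-26032219, minus strand: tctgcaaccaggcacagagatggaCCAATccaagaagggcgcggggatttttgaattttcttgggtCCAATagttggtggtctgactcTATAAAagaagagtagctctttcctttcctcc
HIST1H1D, chr6:26234988-26235107, minus strand: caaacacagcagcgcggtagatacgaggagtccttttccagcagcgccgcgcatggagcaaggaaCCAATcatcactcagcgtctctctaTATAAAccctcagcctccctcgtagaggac
HIST3H2A, chr1:228457874-228457993, minus strand: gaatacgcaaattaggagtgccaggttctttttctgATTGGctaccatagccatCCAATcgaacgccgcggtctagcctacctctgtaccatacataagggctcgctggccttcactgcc
HIST1H2BM, chr6:27814902-27815021, plus strand: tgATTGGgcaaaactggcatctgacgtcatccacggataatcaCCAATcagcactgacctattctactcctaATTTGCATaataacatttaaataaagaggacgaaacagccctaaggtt
HIST1H2BK, chr6:27146856-27146975, minus strand: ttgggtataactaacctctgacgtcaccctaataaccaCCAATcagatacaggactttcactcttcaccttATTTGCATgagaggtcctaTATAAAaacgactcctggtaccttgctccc
The windows of HIST3H2A and HIST1H2BM hold no TATAAA, and those of HIST1H2BM and HIST1H2BK hold the octamer. HIST1H2BM was still counted with TATAAA, from the full 250 bases of a promoter annotated for it.

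Values are TPM (transcripts counted per length and scaled to the same total in each library), and a log2 fold change is a difference of log2(TPM + 1) between group means, given with its standard error. A gene entered the test if 3 or more of a table's 6 libraries had a TPM of 1 or above. It was counted as higher or lower where the adjusted p of limma was under 0.05, and as called where its log2 fold change was also over 1 in size. Of the 74 members, 53 were tested in the PBRM1 experiment, 57 in the IRF1 experiment and 58 in the MUC1 experiment. A total of 53 were tested in every experiment, 60 in at least 1 and 14 in none. The 14 were HIST1H1T, HIST1H2AA, HIST1H2AD, HIST1H2BA, HIST1H4F, HIST1H4G and HIST3H3, which reached at most 3.02 TPM in any library, and 7 genes listed at 0 in each of the 18 libraries. Those 7 were the pseudogene HIST1H2APS1 and the duplicated genes HIST2H2AA3, HIST2H2AA4, HIST2H3A, HIST2H3C, HIST2H4A and HIST2H4B, whose coding sequences are identical within each pair of copies. How reads shared by copies were counted is not known, so a value of 0 there need not mean that the gene is silent. HIST1H4J and HIST1H4K also have identical coding sequences but are listed with separate values, which are therefore uncertain. HIST1H2AI, HIST1H2AJ and HIST2H3D are uncertain in part, since 17.7%, 16.3% and 21.8% of the stretches of 50 bases in their coding sequences occurred in no other member. The share was 49.4%, 53.3%, 55.1% and 69.5% for HIST2H3PS2, HIST2H2BE, HIST2H2BF and HIST2H2AC, so their values also carry some of this limit.

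The silenced genes were lower in their own experiments. PBRM1 was 12.3, 10.7 and 12.6 TPM in control and 3.22, 2.69 and 2.95 TPM in PBRM1shRNA cells, IRF1 was 5.22, 4.49 and 4.54 TPM in control and 1.03, 1.30 and 1.19 TPM in IRF1shRNA cells, and MUC1 was 6.37, 4.97 and 5.55 TPM with vehicle and 3.65, 2.71 and 2.73 TPM with DOX. Of all TPM, short noncoding RNAs took 75.8 to 79.3% for PBRM1, 84.8 to 88.5% for IRF1 and 12.1 to 15.2% for MUC1, so TPM levels are set side by side between tables but are not tested. The authors' mean normalized counts summed to 27111321, 63114292 and 11858741 in these tables, of which the family took 0.446%, 0.639% and 0.268%. Short noncoding RNAs took 9.92%, 4.76% and 0.418% of these counts. Why they took most of the TPM in the BT-549 libraries with a kit that selects poly(A) RNA is not known. The depth of single libraries is unknown. Of the 6 markers of mesenchymal-type breast cancer cells (VIM, FN1, SPARC, CD44, CAV1 and ZEB1), 6, 6 and 5 passed the filter in the 3 tables, while the 3 erythroid and 3 endothelial markers passed it in none. Of 5 leukocyte markers, CD68 was lower with PBRM1shRNA (-1.32 ± 0.09) and IRF1shRNA (-0.45 ± 0.15) and CD14 was higher with DOX (0.89 ± 0.14), and of 3 receptor markers only ERBB2 passed the filter. The summed TPM of the mesenchymal-type markers was 1301 to 1487 in control and 1257 to 1339 in PBRM1shRNA cells, 509 to 671 and 387 to 480 in the IRF1 experiment, and 3568 to 3787 and 2970 to 3082 in the MUC1 experiment. The part of these markers in the histone values below was not tested.

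Silencing PBRM1 was accompanied by higher transcript levels of nearly the whole family in BT-549 cells. Of the 53 members tested, 51 were higher and 0 lower by limma (also 0 lower at an unadjusted p under 0.05), against 24.6% of all 10639 genes higher. With the fold threshold 46 members were called higher, against 1.02% of all genes, and none lower, against 3.86%. The genes called higher numbered 108 in all, so 46 of these 108 were histone genes. The median log2 fold change was 1.32 over the members and -0.05 over all genes tested. The 3 PBRM1shRNA libraries lay above all 3 controls for 51 members, against 26.5% of all genes. The summed TPM of the 74 genes was 4663, 4505 and 4842 in control and 11595, 11123 and 11826 in PBRM1shRNA cells, a ratio of group means of 2.47. In bulk RNA, more cells in S phase and more histone RNA per cell cannot be told apart.

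**Figure D1:**
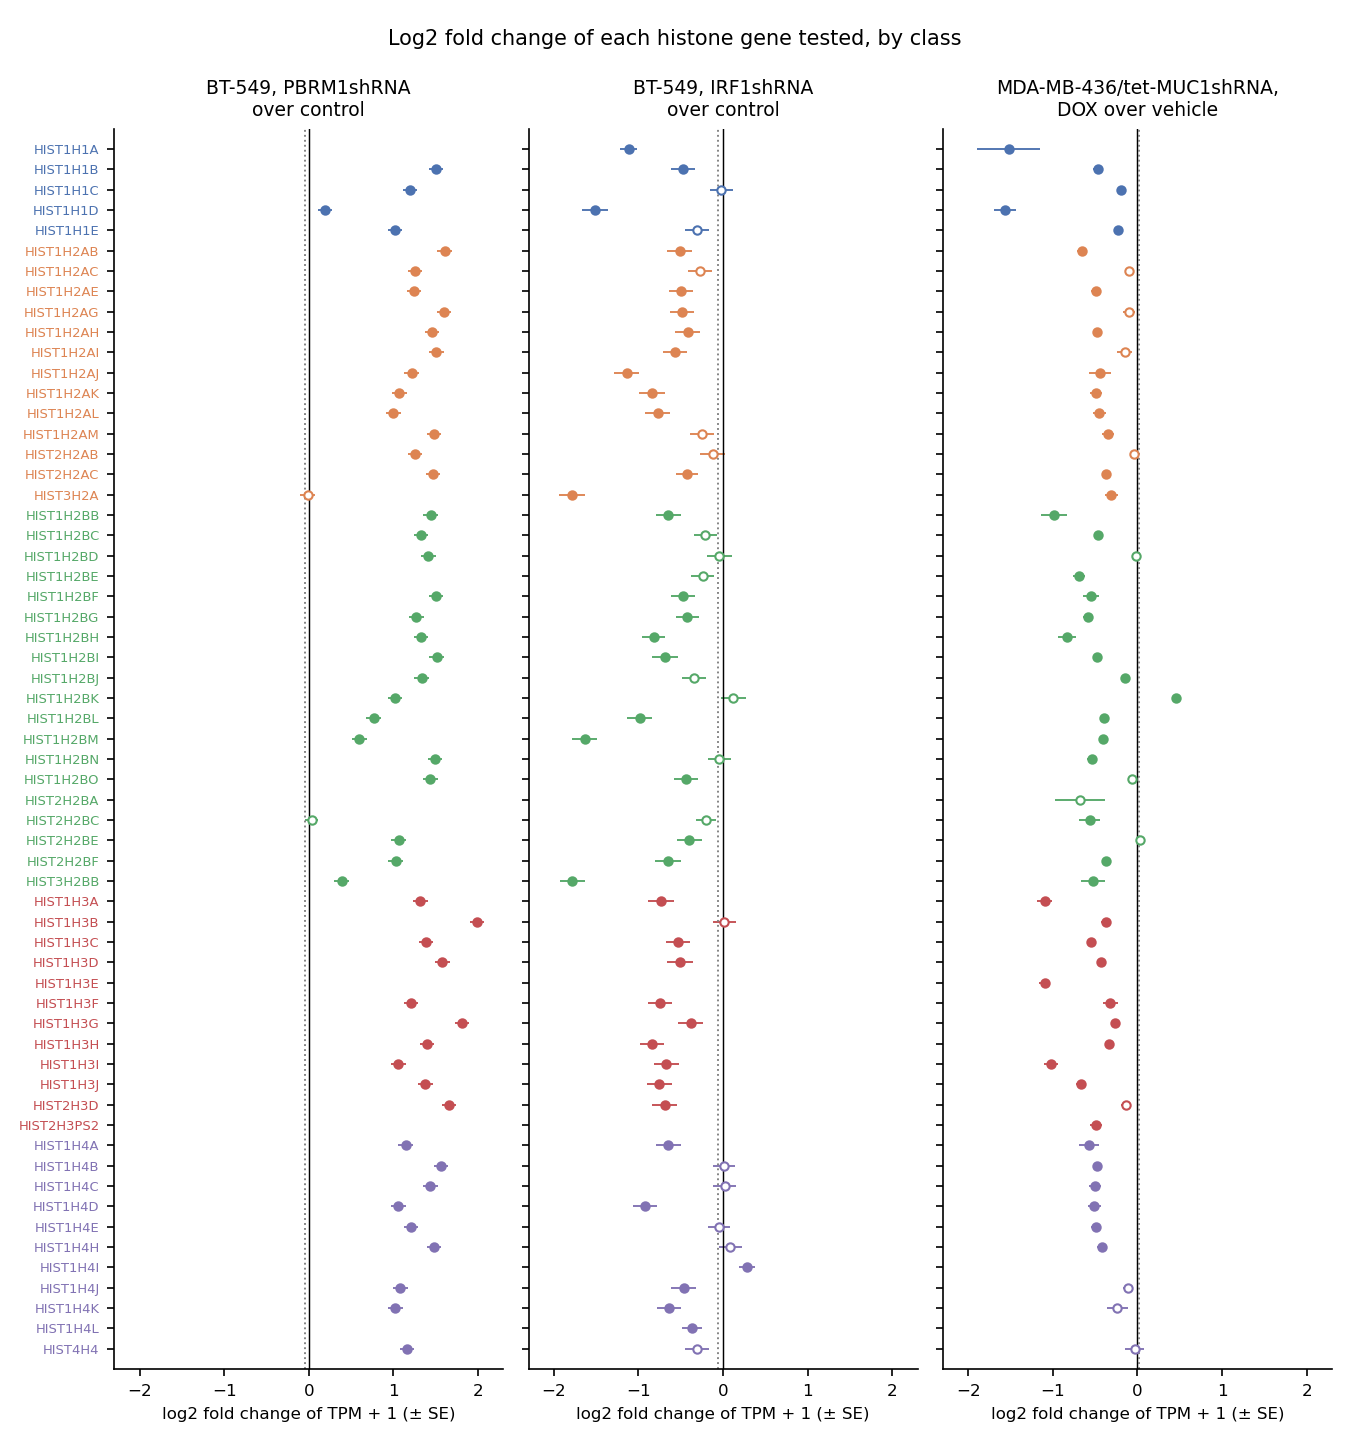
Log2 fold change of TPM + 1 (± SE, x axis) of each histone gene tested (y axis, coloured by class H1, H2A, H2B, H3 or H4) in PBRM1shRNA, IRF1shRNA and DOX-treated cells, with filled points for an adjusted p under 0.05 and a dotted line at the median of all genes. Nearly all points of the left panel lie right of 1, while most points of the other 2 panels lie left of 0.

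The H3 genes, which encode the core histone that carries many of the regulatory methylation and acetylation marks, had the largest median increase, 1.39, and 10 of 10 tested were called. HIST1H3B was 92.6, 99.5 and 103 TPM in control and 391, 370 and 417 TPM in PBRM1shRNA cells, the largest log2 fold change of the family in this comparison (1.99 ± 0.08). HIST1H3G was 12.3, 9.58 and 12.8 against 43.7, 39.0 and 46.2 TPM (1.81 ± 0.09). HIST2H3D was 31.7, 27.3 and 30.9 against 98.3, 93.1 and 98.5 TPM (1.66 ± 0.09). None of these 3 had overlapping groups. HIST1H3D was 23.7, 22.0 and 25.4 against 71.5, 70.4 and 76.3 TPM (1.58 ± 0.09). HIST1H3F, one of the 2 most abundant H3 transcripts with HIST1H3B, was 74.2, 82.5 and 80.9 against 182, 173 and 199 TPM (1.21 ± 0.09). The smallest H3 increase was 1.06.

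H4, the partner of H3 in the nucleosome core, rose in 9 of 9 tested genes, with a median of 1.16, and all 9 were called. HIST1H4E was 305, 285 and 324 TPM in control and 724, 688 and 697 TPM in PBRM1shRNA cells (1.21 ± 0.08). HIST1H4B was 214, 228 and 225 against 633, 668 and 671 TPM (1.56 ± 0.08). Both were far above their controls in every library. HIST4H4, which lies alone on chromosome 12 (chr12:14767999-14771131) outside the large clusters, was 83.6, 82.3 and 85.2 against 210, 175 and 184 TPM (1.16 ± 0.09).

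H2A and H2B form the dimers on the outer faces of the nucleosome core. Of 13 H2A genes 12 were higher, with a median of 1.26, and of 17 H2B genes 16 were higher, with a median of 1.33. HIST2H2AC was 181, 176 and 186 TPM in control and 494, 491 and 531 TPM in PBRM1shRNA cells (1.47 ± 0.08), and HIST1H2AC was 129, 127 and 140 against 302, 313 and 335 TPM (1.26 ± 0.08). HIST1H2AG was 102, 94.6 and 100 against 308, 283 and 314 TPM (1.60 ± 0.09). HIST1H2AB was 28.3, 28.8 and 27.4 against 87.3, 82.5 and 94.1 TPM (1.61 ± 0.09). These are the largest H2A changes and the most abundant H2A transcripts. HIST1H2BC was 194, 188 and 198 against 493, 470 and 495 TPM (1.33 ± 0.08), and HIST1H2BH was 152, 139 and 153 against 394, 356 and 372 TPM (1.33 ± 0.08).

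Among the linker histones, 4 of 4 tested H1 genes were higher, with a median of 1.11, but they did not move by the same amount. HIST1H1C was 316, 303 and 321 TPM in control and 704, 726 and 734 TPM in PBRM1shRNA cells (1.20 ± 0.08). HIST1H1E was 244, 245 and 258 against 488, 525 and 505 TPM (1.02 ± 0.08), and HIST1H1B was 150, 156 and 153 against 407, 452 and 453 TPM (1.51 ± 0.08). HIST1H1D was 123, 127 and 128 against 146, 142 and 144 TPM (0.19 ± 0.09, limma adjusted p = 0.0435). Its groups did not overlap, but it no longer passed the test without control a or c, or without any of the 3 PBRM1shRNA libraries (log2 fold changes of 0.17 to 0.20). The share of the family's TPM taken by H1 was 18.04% ± 0.37 (SD, n = 3) in control and 15.7% ± 0.79 in PBRM1shRNA cells, and the H3 share was 10.1% ± 0.14 and 11.9% ± 0.35.

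The members with no or small increases were few. HIST3H2A was 39.6, 33.1 and 36.7 TPM in control and 38.1, 33.6 and 36.7 TPM in PBRM1shRNA cells (-0.01 ± 0.09, adjusted p = 0.919 by limma), so the groups overlapped throughout. HIST2H2BC, a pseudogene, was 2.40, 1.72 and 1.97 against 2.31, 1.46 and 2.61 TPM (0.03 ± 0.08, adjusted p = 0.734 by limma). Leaving out single libraries moved HIST3H2A between -0.08 and 0.05 and HIST2H2BC between -0.08 and 0.20, so neither has a direction. HIST3H2BB was 86.4, 84.8 and 87.8 against 120, 104 and 116 TPM (0.39 ± 0.09). HIST1H2BM was 40.3, 40.2 and 45.8 against 67.7, 61.4 and 63.4 TPM (0.60 ± 0.09), and HIST1H2BL was 72.5, 62.1 and 76.1 against 124, 114 and 122 TPM (0.77 ± 0.09). These last 3 were higher in every PBRM1shRNA library than in any control, by less than the fold of 1 on the log2 scale.

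By position, 25 of 25 tested genes of the larger chromosome 6 cluster (chr6:25726132-26285638, 35 members) and 19 of 19 of its second cluster (chr6:27125897-27893843, 21 members) were higher, with medians of 1.33 and 1.34. In the chromosome 1 cluster of the HIST2 genes (chr1:149782689-149887916, 12 members) 5 of 6 were higher, with a median of 1.16. The HIST3 group (chr1:228424845-228460470, 3 members) held the tested genes HIST3H2A and HIST3H2BB, with a median of 0.19. The median was 1.30 over 32 members with TATAAA in their promoter and 1.33 over 15 without it.

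**Figure D2:**
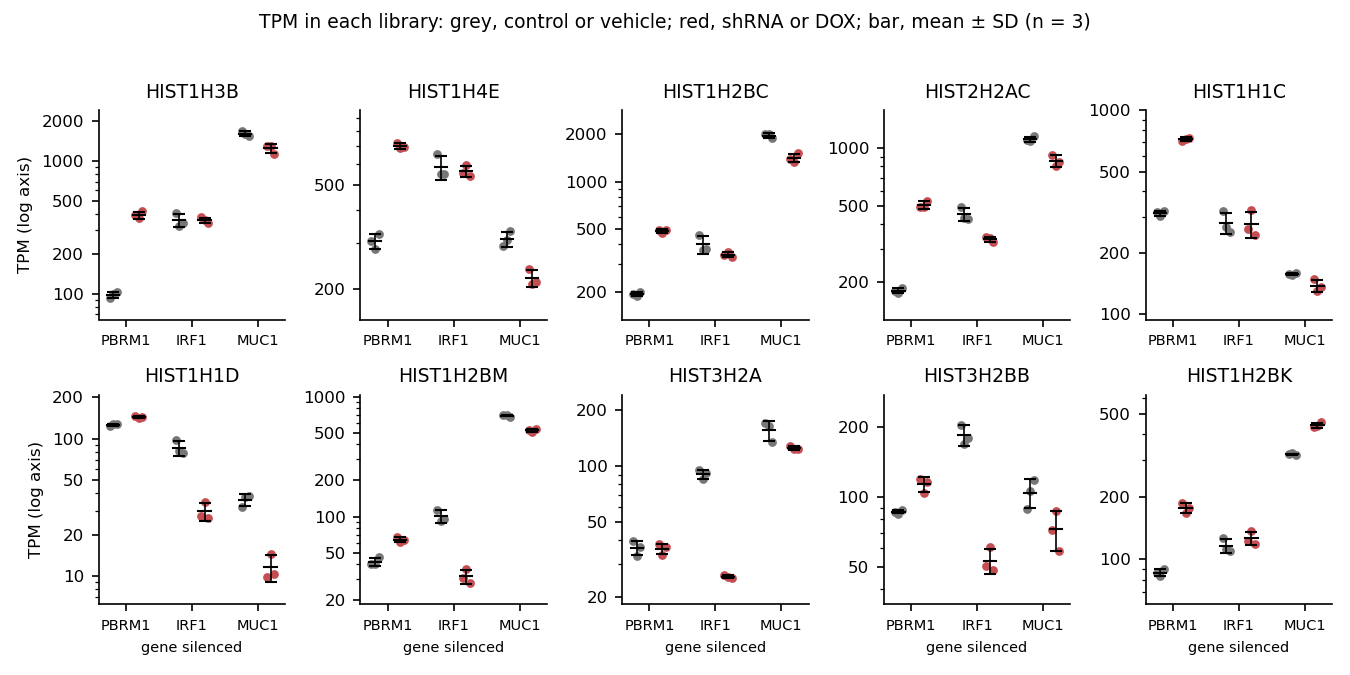
TPM in each library (log axis) of 5 abundant members (upper row) and 5 members that stand apart (lower row), grey for control or vehicle and red for shRNA or DOX, with the mean ± SD of 3 libraries; the x axis gives the gene silenced. HIST1H3B rises from 92.6 to 103 up to 370 to 417 TPM with PBRM1shRNA, whereas HIST3H2A overlaps there and is lower with IRF1shRNA.

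Silencing IRF1 was accompanied by lower levels of most members in BT-549 cells. Of 57 members tested, 38 were lower and 1 higher, against 18.5% of all 9135 genes lower and 5.76% higher. Called lower were 6, against 1.78% of all genes. One of the 6, HIST1H1A, entered the test through its control libraries alone, and 5 were called where the filter was a mean TPM of at least 5. The IRF1shRNA libraries lay below all controls for 45 members, against 25.0% of all genes. The median log2 fold change was -0.48 over the members and -0.06 over all genes. The summed TPM was 10774, 9137 and 9201 in control and 7363, 7784 and 7092 in IRF1shRNA cells, a ratio of 0.764. The count of lower members was 24 without IRF1shRNA library 3 and at least 27 without any other library. The H4 gene HIST1H4I was the member counted as higher (0.28 ± 0.09), at 0.55 to 1.30 TPM in control and 0.99 to 1.67 TPM in IRF1shRNA cells. Its groups overlapped, and no member was higher in fits without control library 1, 2 or 3 or without IRF1shRNA library 1 or 3. No member was called higher, against 0.0547% of all genes, and none lay above all controls, against 8.9%.

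The 6 members called lower were HIST3H2A, HIST3H2BB, HIST1H2BM, HIST1H1D, HIST1H2AJ and HIST1H1A. HIST3H2A was 95.3, 85.0 and 91.4 TPM in control and 26.0, 25.5 and 25.1 TPM in IRF1shRNA cells (-1.78 ± 0.15). Its neighbour HIST3H2BB was 205, 169 and 180 against 50.2, 60.6 and 48.4 TPM (-1.78 ± 0.15). The 2 genes start 230 bases apart on opposite strands, and neither had overlapping groups. HIST1H2BM was 114, 91.4 and 95.9 against 30.6, 36.4 and 28.1 TPM (-1.64 ± 0.15). HIST1H2AJ, which shares a promoter region of 245 bases with HIST1H2BM, was 108, 99.2 and 96.3 against 49.8, 41.6 and 44.9 TPM (-1.14 ± 0.15), with the limit on its reads given above. The linker histone HIST1H1D was 98.3, 80.8 and 78.8 against 27.5, 34.7 and 26.4 TPM (-1.51 ± 0.15). HIST1H1A, another linker histone, was low, at 2.91, 1.94 and 2.23 against 0.502, 0.677 and 0.447 TPM (-1.12 ± 0.10), and as it passed the filter through its 3 control libraries alone, its direction was fixed by the filter.

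H3 was the class with the largest median decrease, -0.68, and 9 of 10 tested H3 genes were lower. HIST1H3C was 299, 259 and 276 TPM in control and 194, 176 and 207 TPM in IRF1shRNA cells (-0.53 ± 0.14). HIST1H3B, the member with the largest increase in PBRM1shRNA cells, was 403, 326 and 342 against 376, 359 and 344 TPM (0.02 ± 0.13, adjusted p = 0.95 by limma), with overlapping groups. It was the single tested H3 gene that did not pass. The H2A genes were lower in 10 of 13 (median -0.49) and the H2B genes in 11 of 18 (median -0.43). HIST1H2AG was 264, 245 and 248 against 191, 176 and 173 TPM (-0.49 ± 0.14), and HIST2H2AC was 494, 434 and 427 against 343, 340 and 325 TPM (-0.42 ± 0.13). HIST1H2BH was 408, 337 and 340 against 207, 220 and 187 TPM (-0.82 ± 0.14). HIST1H2BC was 461, 367 and 373 against 343, 359 and 332 TPM (-0.21 ± 0.13, adjusted p = 0.271 by limma), lower in each library but not past the test. HIST1H2AG did not pass without IRF1shRNA library 3, and HIST2H2AC did not pass without control library 2, IRF1shRNA library 1 or IRF1shRNA library 3.

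The H4 genes moved least, with 5 of 11 lower and a median of -0.31. HIST1H4E was 653, 550 and 547 TPM in control and 554, 594 and 541 TPM in IRF1shRNA cells (-0.05 ± 0.13, adjusted p = 0.837 by limma). HIST1H4B was 565, 478 and 484 against 489, 567 and 479 TPM (0.01 ± 0.13, adjusted p = 0.979 by limma). Both overlapped between the groups, as did HIST1H4C and HIST1H4H. HIST1H4D, in contrast, was 197, 166 and 160 against 89.6, 92.9 and 91.7 TPM (-0.92 ± 0.14). H4 took 24.9% ± 0.28 of the family's TPM in control and 29.2% ± 0.61 in IRF1shRNA cells. Of 5 H1 genes 3 were lower. They were HIST1H1A, whose direction the filter fixed, HIST1H1D and HIST1H1B, the last at 206, 180 and 170 against 128, 150 and 121 TPM (-0.47 ± 0.14). HIST1H1B did not pass without control library 2, IRF1shRNA library 1 or IRF1shRNA library 3. HIST1H1C was 319, 268 and 254 against 263, 324 and 244 TPM (-0.02 ± 0.14, adjusted p = 0.938 by limma), with overlapping groups.

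By position, 16 of 27 tested genes of the larger chromosome 6 cluster and 16 of 21 of the second were lower, with medians of -0.48 and -0.49. In the HIST2 cluster 4 of 6 were lower, with a median of -0.41. Both tested HIST3 genes were lower.

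Side by side, 35 of the 53 members tested in both BT-549 experiments were higher with PBRM1shRNA and lower with IRF1shRNA. Taken singly, 24.6% of all genes were higher with PBRM1shRNA and 18.5% lower with IRF1shRNA. The share of all genes with this joint pattern was not taken, so how particular it is to the family is not known. The control cultures of the 2 experiments were different libraries. Across these 53 members the 2 log2 fold changes had a Pearson correlation of 0.58 and a Spearman correlation of 0.34, given as a description of genes that share chromosome clusters, length and much of their sequence. HIST3H2A, HIST3H2BB, HIST1H1D, HIST1H2BM and HIST1H2BL were at the low end of both scales. IRF1 itself was lower in PBRM1shRNA cells (24.4 ± 1.62 against 7.46 ± 0.57 TPM, SD, n = 3, log2 fold change -1.59 ± 0.09), whereas PBRM1 was 6.68 ± 1.21 and 6.73 ± 0.88 TPM in the IRF1 experiment.

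**Figure D3:**
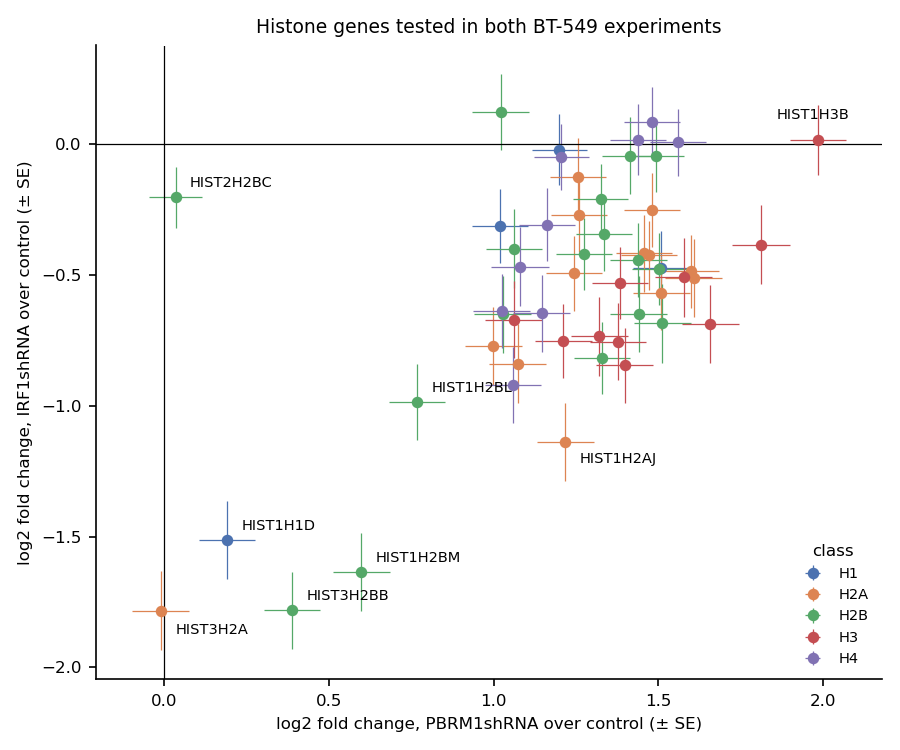
Log2 fold change (± SE) of each of the 53 histone genes tested in both BT-549 experiments, with PBRM1shRNA over control on the x axis and IRF1shRNA over control on the y axis, coloured by class. Most genes lie between 1 and 2 on the x axis and below 0 on the y axis, with HIST3H2A, HIST3H2BB, HIST1H1D and HIST1H2BM at the lower left.

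Adding DOX to MDA-MB-436/tet-MUC1shRNA cells was also accompanied by lower levels of most members. Of 58 members tested, 45 were lower and 1 higher, against 23.4% of all 13229 genes lower and 27.0% higher. Called lower were 5, against 1.35% of all genes. One of the 5, HIST1H1A, met the filter through its vehicle libraries, and 4 were called where the filter was a mean TPM of at least 5. The DOX libraries lay below all vehicle libraries for 44 members, against 27.7% of all genes. The median log2 fold change was -0.46 over the members and 0.02 over all genes. The summed TPM was 30580, 30937 and 30420 with vehicle and 23644, 23238 and 23078 with DOX, a ratio of 0.761.

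All 5 tested H1 genes were lower with DOX, counting HIST1H1A, which met the filter through its vehicle libraries. HIST1H1D was 31.9, 37.5 and 38.1 TPM with vehicle and 9.78, 14.5 and 10.4 TPM with DOX (-1.57 ± 0.13), a ratio of means of 0.322. HIST1H1A was near the limit of the filter, at 4.0, 4.74 and 4.61 against 2.50, 0 and 0.937 TPM (-1.52 ± 0.37), a ratio of means of 0.258. The more abundant linker histones changed less. HIST1H1E was 180, 165 and 180 against 158, 144 and 146 TPM (-0.23 ± 0.05), and HIST1H1C was 158, 156 and 159 against 148, 130 and 135 TPM (-0.19 ± 0.05).

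Of 12 H3 genes 11 were lower, with a median of -0.46, and 3 were called. HIST1H3A was 506, 509 and 512 TPM with vehicle and 264, 253 and 201 TPM with DOX (-1.10 ± 0.09). HIST1H3E was 86.2, 83.6 and 88.7 against 35.4, 42.5 and 41.6 TPM (-1.10 ± 0.07), and HIST1H3I was 385, 458 and 435 against 208, 232 and 188 TPM (-1.02 ± 0.08). The most abundant H3 transcripts moved less than these. HIST1H3G was 2608, 2855 and 2538 against 2360, 2234 and 2082 TPM (-0.26 ± 0.06), and HIST1H3C was 2043, 2148 and 1920 against 1402, 1396 and 1384 TPM (-0.55 ± 0.04). Of 9 H4 genes 6 were lower, with a median of -0.48. HIST1H4H was 2193, 2183 and 2010 against 1571, 1498 and 1701 TPM (-0.42 ± 0.05), and HIST1H4B was 1864, 1950 and 2009 against 1370, 1421 and 1393 TPM (-0.48 ± 0.04).

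Of 13 H2A genes 9 were lower and of 19 H2B genes 14. HIST2H2AC was 1094, 1080 and 1145 TPM with vehicle and 923, 804 and 840 TPM with DOX (-0.37 ± 0.05). HIST1H2AG was 513, 469 and 548.7 against 514, 475 and 436 TPM (-0.10 ± 0.07, adjusted p = 0.247 by limma), with overlapping groups. HIST1H2BC was 1994, 2001 and 1892 against 1398, 1340 and 1515 TPM (-0.47 ± 0.05), and HIST1H2BI was 749, 748 and 792 against 536, 543 and 566 TPM (-0.47 ± 0.04). HIST1H2BB was 151, 204 and 209 against 105, 74.7 and 104 TPM (-0.98 ± 0.15). These 3 H2B genes were lower in every DOX library. HIST1H2BK went the other way, at 320, 323 and 319 TPM with vehicle and 431, 438 and 456 TPM with DOX (0.46 ± 0.03, adjusted p = 7.85e-06 by limma). HIST2H2BE was 322, 328 and 303 against 317, 342 and 312 TPM (0.03 ± 0.05), and HIST1H2BD was 343, 350 and 342 against 339, 341 and 343 TPM (-0.02 ± 0.03), both with overlapping groups. By position, 26 of 28 tested genes of the larger chromosome 6 cluster and 13 of 19 of the second were lower, and in the HIST2 cluster 3 of 6.

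Some members followed the same order in more than 1 experiment. Among the 4 H1 genes tested in every experiment, HIST1H1D had the smallest increase in PBRM1shRNA cells and the largest decrease with IRF1shRNA and with DOX. HIST1H2BK was among the smaller increases in PBRM1shRNA cells (86.5, 83.0 and 90.0 against 186, 167 and 176 TPM, 1.02 ± 0.09), had overlapping groups with IRF1shRNA (126, 112 and 110 against 123, 137 and 119 TPM, 0.12 ± 0.14) and was higher with DOX. HIST3H2A and HIST3H2BB fell less with DOX than with IRF1shRNA, with log2 fold changes of -0.31 ± 0.08 and -0.53 ± 0.14, and this difference between tables was not tested. Of the 55 members tested with IRF1shRNA and with DOX, 30 were lower in both. Taken singly, 18.5% of all genes were lower with IRF1shRNA and 23.4% with DOX, and the share lower in both was not taken. Across members the log2 fold changes of these 2 experiments had a Pearson correlation of 0.40 and a Spearman correlation of 0.33 (n = 55), and those of the PBRM1 and MUC1 experiments 0.18 and 0.03 (n = 53).

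Many H2A and H2B genes sit head to head, with a single region between their starts. There were 13 such pairs with starts at most 1000 bases apart, and both genes were tested in 10 of them in each experiment. The median difference in log2 fold change between the 2 genes of a pair was 0.40 in the PBRM1 experiment, against 0.26 over the 211 other combinations of a tested H2A and a tested H2B gene. It was 0.17 against 0.36 (224 combinations) in the IRF1 experiment and 0.23 against 0.27 (237 combinations) in the MUC1 experiment. Some pairs moved alike, such as HIST1H2AE and HIST1H2BG, with 1.24 and 1.27 in the PBRM1 experiment, -0.49 and -0.42 in the IRF1 experiment and -0.49 and -0.58 in the MUC1 experiment. Others did not. HIST1H2AH and HIST1H2BK start 248 bases apart and had log2 fold changes of 1.46 and 1.02, -0.42 and 0.12, and -0.48 and 0.46 in the 3 experiments in this order. HIST1H2AK and HIST1H2BN, 194 bases apart, had 1.07 and 1.49 in the PBRM1 experiment and -0.84 and -0.05 in the IRF1 experiment. They were close in the MUC1 experiment, at -0.49 and -0.54.

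The class makeup of the family differed between the cell lines and between the BT-549 experiments. H1 took 18.04% and 7.51% of the family's TPM in the control groups of the 2 BT-549 experiments and 1.58% in vehicle-treated MDA-MB-436/tet-MUC1shRNA cells. H3 took 10.1%, 15.8% and 32.2% of it in the same groups. The 2 BT-549 control groups thus also differed from each other. A share of the family's TPM does not depend on the scale of a table, but the cell line and the experiment cannot be told apart. For the TPM values below, from tables scaled separately, the share of short noncoding RNA cannot be told apart from these either. Some members had far lower listed values in BT-549 than in MDA-MB-436/tet-MUC1shRNA cells, where a listed 0 may also be a failed estimate. The mean family sum of the PBRM1 controls, IRF1 controls and vehicle group was 4670, 9704 and 30645 TPM as listed. With short noncoding RNAs removed and TPM rescaled it was 20901, 72891 and 35345. The values below are as listed, so the size of their contrasts depends on the scale. HIST1H3E was listed at 0 in all 6 libraries of the PBRM1 table and at most 0.04 TPM in the IRF1 table, against 83.6 to 88.7 TPM with vehicle. HIST1H2BE was 0.69 to 0.74 TPM and 3.13 to 3.93 TPM in the 2 BT-549 control groups, against 270 to 286 TPM with vehicle. HIST1H3G was 9.58 to 12.8 TPM and 36.0 to 41.0 TPM in these control groups, against 2538 to 2855 TPM with vehicle.

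**Figure D4:**
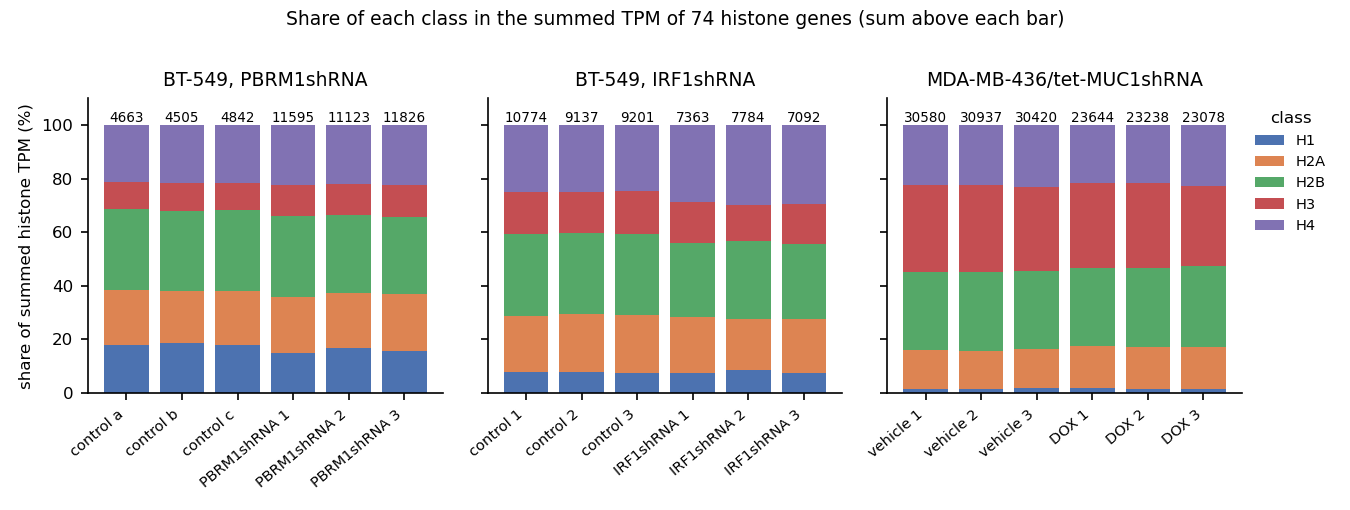
Share of each class (H1, H2A, H2B, H3, H4) in the summed TPM of the 74 histone genes in each of the 18 libraries (y axis, percent), with the summed TPM above each bar. The sums are 4505 to 4842 in control and 11123 to 11826 in PBRM1shRNA libraries, and H1 is a thin band in MDA-MB-436/tet-MUC1shRNA cells.

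The medians of the related gene lists were closer to 0 than that of the family. Of 43 genes of S phase and DNA replication, 30 were higher and 2 lower in PBRM1shRNA cells, with a median log2 fold change of 0.31 and none called. Of all genes tested, 24.6% were higher and 34.8% lower in PBRM1shRNA cells, 5.76% and 18.5% in IRF1shRNA cells, and 27.0% and 23.4% with DOX, and the counts of each list are to be read against these shares. Among the higher genes were RRM1, a ribonucleotide reductase subunit (0.84 ± 0.09), and GINS4, part of the replicative helicase (0.71 ± 0.09). The replication clamp PCNA had 0.43 ± 0.09. In IRF1shRNA cells 15 of the 43 were lower and 1 higher, with a median of -0.21. UHRF1, which maintains DNA methylation at replication (-0.82 ± 0.15), RRM2 (-0.66 ± 0.15), MCM5 (-0.64 ± 0.15) and PCNA (-0.62 ± 0.15) were among the lower genes. With DOX, 16 were higher and 4 lower, with a median of 0.10, so most of the genes that passed were higher while the histone genes were lower. GINS1 (0.51 ± 0.05), POLA1 (-0.43 ± 0.06) and CDT1 (0.35 ± 0.06) changed most. The part of the number of cells in S phase in the histone values was not tested.

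**Figure D5:**
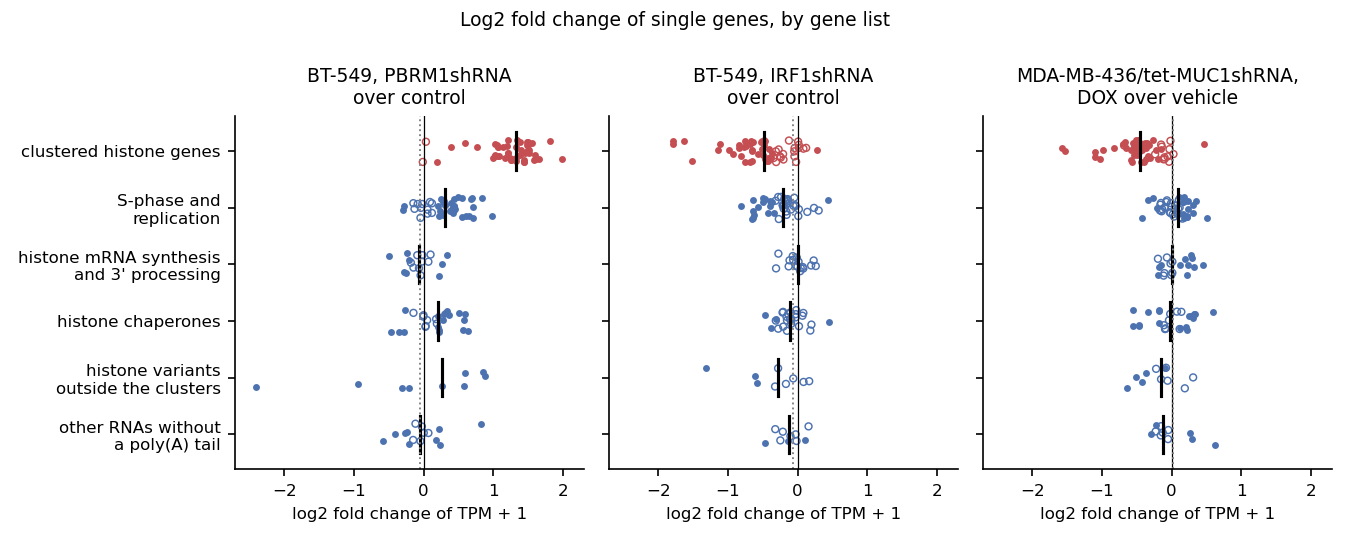
Log2 fold change of TPM + 1 (x axis) of single genes (points) in 6 lists (y axis) for the 3 experiments, with filled points for an adjusted p under 0.05, a thick bar at the median of the list and a dotted line at the median of all genes. The medians of the clustered histone genes (1.32, -0.48 and -0.46) lie farther from 0 than those of the S-phase genes (0.31, -0.21 and 0.10).

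Among the genes for the synthesis and 3′ processing of histone mRNA, 3 were higher and 5 lower of 17 tested in PBRM1shRNA cells (median -0.07), 0 and 0 of 17 by limma in IRF1shRNA cells (median -0.00, with 0 higher and 1 lower at an unadjusted p under 0.05), and 8 were higher and 3 lower of 19 with DOX (median 0.01). In PBRM1shRNA cells these counts are below the shares over all genes (24.6% higher and 34.8% lower). SLBP, which binds the stem-loop printed above, was 17.4 ± 1.38 against 20.5 ± 1.78 TPM in the PBRM1 experiment (0.22 ± 0.09, adjusted p = 0.0193 by limma). It was 13.1 ± 1.82 against 10.3 ± 1.34 TPM in the IRF1 experiment (-0.31 ± 0.15, adjusted p = 0.124 by limma) and 122 ± 0.66 against 139.5 ± 4.6 TPM in the MUC1 experiment (0.19 ± 0.04, adjusted p = 0.00243 by limma). NPAT passed in none of the 3, with log2 fold changes of -0.09, -0.06 and -0.10. The largest changes that passed were in SYMPK, a scaffold of the cleavage complex (-0.50 ± 0.09 in PBRM1shRNA cells), and ZNF473, a zinc finger protein that acts with the U7 particle (0.45 ± 0.08 with DOX).

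Histone chaperones, which carry histones to DNA, were higher in 14 and lower in 4 of 26 in PBRM1shRNA cells (median 0.21), higher in 1 and lower in 3 of 25 in IRF1shRNA cells (median -0.11), and higher in 9 and lower in 8 of 26 with DOX (median -0.03). ASF1B, a chaperone of newly made H3 and H4, had 0.64 ± 0.09 in PBRM1shRNA cells and 0.59 ± 0.04 with DOX. In IRF1shRNA cells the changes that passed were in DAXX (-0.47 ± 0.13), IPO4 (0.45 ± 0.15), ANP32E (-0.39 ± 0.15) and MMS22L (-0.31 ± 0.12). The counts for IRF1shRNA are below the shares over all genes (5.76% higher and 18.5% lower).

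The histone variant genes outside the clusters are mostly known for polyadenylated transcripts made through the cell cycle, with H2AFX, which holds the stem-loop, as an exception. Of 9 tested in PBRM1shRNA cells 5 were higher and 4 lower, in IRF1shRNA cells 0 and 3 of 9, and with DOX 0 and 5 of 11, with medians of 0.27, -0.28 and -0.15. The variants that passed were thus of both directions with PBRM1shRNA and lower with IRF1shRNA and DOX. The linker histone H1F0 was 346 ± 20.8 TPM in control and 64.4 ± 1.31 TPM in PBRM1shRNA cells (-2.41 ± 0.09), opposite to the 4 clustered H1 genes there. It was 46.1 ± 5.63 against 17.8 ± 1.45 TPM in the IRF1 experiment (-1.32 ± 0.15) and 134 ± 6.62 against 85.4 ± 1.85 TPM in the MUC1 experiment (-0.64 ± 0.04). Another linker histone, H1FX, was lower in all 3 (-0.93 ± 0.09, -0.58 ± 0.15 and -0.51 ± 0.07). H2AFZ, the H2A.Z gene, had 0.85 ± 0.08 in PBRM1shRNA cells, -0.06 ± 0.14 in IRF1shRNA cells and -0.10 ± 0.03 with DOX, and H2AFX had 0.58 ± 0.09, -0.17 ± 0.15 and -0.15 ± 0.06, of which only the PBRM1 value passed. H3F3B, an H3.3 gene, had -0.31 ± 0.09, -0.28 ± 0.15 (not past the test) and -0.36 ± 0.06.

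Other RNAs known to have forms without a poly(A) tail were listed for comparison. Of 15 tested in PBRM1shRNA cells 4 were higher and 5 lower, with a median of -0.05, and none was called, close to the shares of 24.6% higher and 34.8% lower over all genes. TERC, the RNA of telomerase, had 0.82 ± 0.09, RMRP 0.24 ± 0.08, RN7SK 0.07 ± 0.07 (not past the test), MALAT1 -0.41 ± 0.08 and SCARNA5 -0.58 ± 0.09. In IRF1shRNA cells 1 was higher and 2 lower of 10, namely RN7SL2 (0.11 ± 0.04), NEAT1 (-0.47 ± 0.15) and RN7SK (-0.14 ± 0.05). With DOX 3 were higher and 2 lower of 11, among them SCARNA5 (0.62 ± 0.10), SCARNA10 (0.30 ± 0.06) and MALAT1 (-0.29 ± 0.05). The part of poly(A) selection in the histone values was not tested.

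Epithelial markers moved with the treatment. The summed TPM of EPCAM, CDH1, KRT8 and KRT18 was 3.90 to 4.57 in control and 34.0 to 39.9 in PBRM1shRNA libraries, where 2 of the 4 were tested and both were higher while EPCAM and CDH1 stayed under the filter. It was 836 to 866 with vehicle and 1648 to 1724 with DOX, where 4 of 4 were higher. In the IRF1 experiment it was 1.73 to 2.37 in control and 0.83 to 1.01 in IRF1shRNA libraries, where KRT18, the tested marker, was lower. The part of these markers in the histone values was not tested.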

How the data were processed

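RNA was sequenced from triplicate cultures of 6 groups (18 libraries). The authors aligned reads with STAR to GRCh38 and normalized and compared counts with DESeq2, with no versions given. Sources used here give neither the annotation nor the program behind the TPM values. The deposited TPM tables, scaled to a total of 1000000 per library and made separately for the 3 experiments, were used for every comparison. The DESeq2 tables deposited by the authors hold a mean normalized count per gene (a signal averaged over both groups), used here for depth only. Their fold changes, errors, statistics and p-values were not used.

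Genes with TPM of at least 1 in at least 3 of 6 libraries were kept, and log2(TPM + 1) was fitted with limma 3.58.1 (lmFit, eBayes with trend, R 4.3.3), two-sided, without a block. P-values were adjusted by Benjamini-Hochberg over all genes of a table. A log2 fold change on this scale understates the change of low genes. In both BT-549 fits the prior degrees of freedom were infinite, so the SE follows the expression level. The script was tested on simulated data. No 2 columns held identical values, and nothing says beyond the triplicate label how separate the cultures were. The members and lists were chosen with earlier results of these data known. Values in every library are given for the 2 most abundant tested members per class, the 6 largest changes past the test without overlap and the smallest change in each direction. From each list the 3 largest changes that passed were eligible (1 of them is not reported here), with SLBP, NPAT, PCNA, H2AFX, H2AFZ, H3F3B, RN7SK and RMRP, and other members and genes were named after their values were seen. Control columns of the PBRM1 table name the group but not the sample, and are called a, b and c. By the number that ends the column names, deviations from the group means correlated across genes at 0.455, 0.309 and 0.290 between same-numbered PBRM1 and control libraries, so these may be paired. Adding the block left 51 members higher and 0 lower.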

Additional observations from a re-analysis of the deposited data

How the results depend on the processing

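In PBRM1shRNA cells 50 to 51 members were higher under every alternative tried and in every fit without 1 library. Members lower numbered 1 with no filter on low values and 2 after short noncoding RNAs were removed and TPM rescaled, which moved the median of all genes from -0.05 to -0.16 and the log2 ratio of the summed TPM from 1.30 to 1.22, and with which 1 member was called lower. Called higher were 38 with quantile scaling and up to 47 under other alternatives. In IRF1shRNA cells 35 to 46 members were lower under the alternatives other than the replicate block, and 24 to 39 without 1 library. The count of higher members was 0 with a mean TPM of at least 5, with no filter, without the mean-variance trend and with the replicate block, 3 with median-ratio scaling, 5 with quantile scaling and 5 without short noncoding RNAs, and 0 to 1 without 1 library. HIST1H2BK was among those higher under the 3 scalings (0.24, 0.19 and 0.29). With DOX 42 to 46 members were lower and 1 higher under every alternative and without 1 library. Without 1 library the log2 ratio of the summed TPM was 1.28 to 1.33 for PBRM1shRNA, -0.43 to -0.31 for IRF1shRNA and -0.40 to -0.39 for DOX. Removing short noncoding RNAs moved it from -0.39 to -0.27 for IRF1shRNA, outside that range, and from -0.39 to -0.41 for DOX. For H4 with IRF1shRNA it moved from -0.16 to -0.03. The IRF1shRNA median over members went from -0.48 to -0.36 with this removal and to -0.32 with quantile scaling, so the size of this decrease depends on the scaling.

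Directions changed only for members near 0. Without short noncoding RNAs HIST2H2BC became -0.036 (PBRM1shRNA), and HIST1H1C 0.10 and HIST1H4E 0.071 (IRF1shRNA). With median-ratio scaling HIST3H2A became 0.023 (PBRM1shRNA), and HIST1H1C 0.050 and HIST1H4E 0.023 (IRF1shRNA). With quantile scaling HIST1H1C became 0.080, HIST1H4B -0.032 and HIST1H4E 0.031 (IRF1shRNA). Without 1 library HIST2H2BC ranged from -0.080 to 0.20 and HIST3H2A from -0.077 to 0.048 (PBRM1shRNA), HIST1H1C from -0.14 to 0.075, HIST1H3B from -0.046 to 0.11, HIST1H4B from -0.069 to 0.085 and HIST1H4E from -0.092 to 0.035 (IRF1shRNA), and HIST2H2BE from -0.012 to 0.053 (DOX). Of the other values of named members, 457 kept direction and side of the threshold under the alternatives, 6 no longer passed and 5 newly passed, and 328 kept both without 1 library while 12 no longer passed. The cause of these changes was not tested.

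With the replicate number as a block, 51 members were higher and 0 lower with PBRM1shRNA, 0 higher and 27 lower with IRF1shRNA, and 1 higher and 45 lower with DOX. Same-numbered libraries correlated at -0.209, 0.0854 and 0.228 in the IRF1 experiment and at 0.053, -0.0364 and 0.00575 in the MUC1 experiment. These few values do not settle whether the numbers pair the samples there. Per-library depth is not known, and 3 libraries per group limit the precision.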
